A study of Mus musculus with 5 samples.

Results

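The 10 genes described here, Prg4, Cytl1, Cilp, Cilp2, Vit, Wfdc2, Erg, Creb5, Tesc and Vwa1, were grouped as genes of the articular surface and taken by name from the 29818 genes counted in knee cartilage cells of newborn mice. One measured value entered the choice: Cytl1 was higher over all cells in the libraries labelled mutant, so this difference is given below as a description without a test. All 10 genes were found in the count tables, and the name did not hold for Cilp2, which had most of its UMIs in tendon cells. Wfdc2 had more of its UMIs in proliferating than in articular chondrocytes, although relative to all UMIs of a class it was highest in articular chondrocytes. Single cells were obtained from the distal femur and proximal tibia of 5 littermate pups, labelled C57BL/6J, and captured with the BD Rhapsody system, 1 library per pup. The system places single cells in microwells with barcoded beads that tag each captured transcript with a molecular identifier (UMI), and copies made by PCR then count as 1 transcript. Pups 1 and 2 were wild type (WT). Pups 3, 4 and 5 (mutant) carried, on 1 allele, a conditional knock-in of Trpv4 p.R594H, a substitution in a calcium-permeable cation channel, that was induced by Col2a1-Cre, a transgene active in chondrocytes and their precursors, so that cells without a history of Col2a1-Cre activity keep the allele uninduced. The Cre line had been made on a B6SJLF1 background before crosses to C57BL/6J. The labels give the age as postnatal day 5 and the description of the series as postnatal day 3.

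Articular cartilage covers the ends of bones, and its most superficial cells secrete lubricin, the product of Prg4, which keeps sliding joint surfaces from adhering. These cells arise from the joint interzone rather than from the growth plate columns, and they differ from growth plate chondrocytes in their matrix and in transcription factors such as Erg and Creb5. In newborn mice the knee epiphysis is still cartilage, so cells of the future joint surface and of the growth plate are released together.

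The libraries held 84382 cells, of which 82516 had 200 to 6000 genes and at most 10% mitochondrial UMIs. Between 117746735 and 183322632 UMIs were counted per library, with a median per cell of 9261 and 8521 in WT pups 1 and 2 against 6000 to 7016 in the mutant pups, so that depth moved with the genotype label. Xist was detected in 89.8% and 88.4% of the cells of mutant pups 3 and 4 and in at most 0.174% of those of the other libraries, whereas Ddx3y, a gene of the Y chromosome, was detected in 66.3% to 70.1% of the cells of both WT libraries and of mutant pup 5. Sex is not given in the labels, and it cannot be told apart from genotype except through mutant pup 5. Libraries shared 3 to 7 cell barcodes per pair, against 3.7 to 6 expected by chance. A point substitution is not visible in gene counts, so the genotype labels were not checked by Trpv4 itself. The cells fell into 48 clusters, formed without the 10 genes and named by marker genes, and 13271 cells were articular chondrocytes, 10583 resting chondrocytes, 12109 proliferating and prehypertrophic chondrocytes (called proliferating below) and 1040 hypertrophic chondrocytes. Another 7040 cells were synovial, 20500 tendon or ligament, 4472 perichondrial and 8767 unnamed, although the labels call all cells chondrocytes and the tissue had been dissected free of tendon. Prg4 was 1 of the 8 markers of the articular class, so its high level there was partly set by the name, whereas the other 9 genes entered neither the clusters nor the names.

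Prg4 was highest in articular chondrocytes, with 16654 counts per 1000000 UMIs (CPM, all pups pooled) against 2552 over all cells. Per pup, 69.3% ± 2.73 (SD, n = 5) of all Prg4 UMIs lay in this class, which held 14.2% to 18.2% of the cells. Among the named cartilage and connective tissue classes, tendon cells followed with 1112 CPM, and resting and proliferating chondrocytes held 779 and 589. The synovial clusters held 282 to 1189 CPM. Unnamed cells held 8.5% ± 2.3 (SD, n = 5) of the Prg4 UMIs, with 3859 CPM in cluster 17 and 5998 in cluster 28. Macrophages, which are not a source of lubricin, held 325 CPM of Prg4 together with 9201 CPM of Col2a1, the cartilage collagen, and erythroid cells held 1839 and 31696. After every cell was thinned to 3000 UMIs, a Prg4 UMI was present in 89.6% to 94.1% of articular chondrocytes over the 5 pups and in 13.8% to 18.0% of macrophages (91.6% to 95.6% and 20.4% to 33.6% without thinning). Thinning kept the 12501 of 13271 articular cells and 1145 of 1178 macrophages that held enough UMIs. Before thinning, the median articular cell held 4484 to 6929 UMIs over the pups, and the median cell of the macrophage clusters 5434 to 8982. In erythroid cells, which do not make lubricin either, the thinned share was 25.5% to 37.8%. Free RNA in the suspension can give UMIs to any cell, and these 2 classes give a lower and a higher background. Prg4 in perichondrial cells, at 262 CPM, was below both pooled levels. The levels of tendon cells and of resting and proliferating chondrocytes lay between them. The macrophage pool held clusters at 299, 412 and 80.0 CPM, and the part of free RNA in these levels was not tested.

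The secreted and matrix genes differed in how far they kept to the articular class. Cytl1, which encodes a small secreted protein of cartilage, reached 737 CPM in articular, 160 in resting and 121 in proliferating chondrocytes, and 48.7% ± 3.89 (SD, n = 5) of its UMIs lay in articular cells. Macrophages held 23.5 CPM of it and erythroid cells 103, and tendon cells (54.5) lay between these backgrounds. Cilp, a matrix glycoprotein of cartilage that binds TGF-β1, held 352 CPM in articular chondrocytes, 119 in synovial and 105 in tendon cells. In resting, proliferating and hypertrophic chondrocytes Cilp stood at 5.1, 7.8 and 9.8 CPM, below the 12 CPM of macrophages. Its paralog Cilp2 was distributed in another way: tendon and perichondrial cells held 267 and 251 CPM and articular chondrocytes 115, and 59.0% ± 4.0 (SD, n = 5) of its UMIs were in tendon cells against 12.7% ± 1.47 in articular chondrocytes. Vit encodes vitrin, a matrix protein with von Willebrand A domains, and held 255 CPM in articular chondrocytes, 64.0 in synovial cells and 20.5 to 27.9 in the growth plate classes other than hypertrophic (20.4). Vwa1 encodes WARP, a matrix protein of cartilage surfaces and of basement membranes around vessels and nerves. Its articular level of 52.8 CPM lay below that of Schwann cells (97.5) and endothelial cells (71.8), and it was 2.4 in macrophages. Wfdc2, which encodes a secreted protein with whey acidic protein domains, was sparse everywhere: 6.1 CPM in articular, 4.4 in proliferating and 3.4 in resting chondrocytes. Of its UMIs, 33.6% ± 3.26 (SD, n = 5) were in proliferating and 20.9% ± 5.96 in articular chondrocytes.

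**Figure D1:**
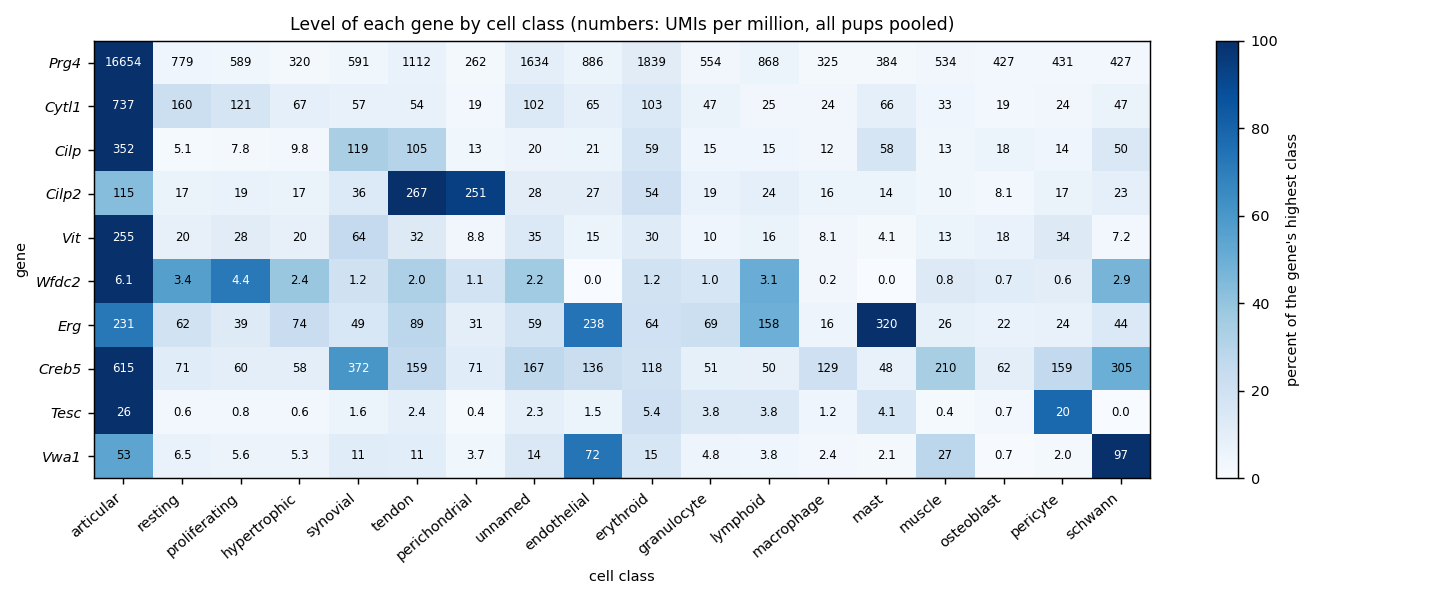
Level of each gene (rows) in each cell class (columns). Numbers are CPM with the pups pooled, and shading is the percent of the gene's highest class. Prg4, Cytl1, Cilp, Vit, Wfdc2, Creb5 and Tesc peak in the articular column, Cilp2 in tendon, Erg in mast cells and Vwa1 in Schwann cells.

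Among the genes that act inside the cell, Creb5, a transcription factor of the CREB/ATF family known to be required for Prg4 expression in articular chondrocytes, held 615 CPM in articular chondrocytes and 372 in synovial cells, against 58.1 to 70.6 in the other chondrocyte classes. Macrophages also held 129 CPM of Creb5 and muscle cells 210. Erg, an ETS-family factor of joint progenitors and of endothelium, held 231 CPM in articular chondrocytes, 238 in endothelial cells and 320 in the 55 mast cells. A UMI of Erg was present, after thinning, in 43.8% to 47.5% of articular chondrocytes, 40.0% to 51.4% of endothelial cells and 2.45% to 5.21% of macrophages (56.1% to 69.1%, 62.2% to 80.6% and 7.61% to 11.1% without thinning). Tesc, which encodes the calcium-binding protein tescalcin, held 26.2 CPM in articular chondrocytes and 20.4 in pericytes, and 64.8% ± 6.25 (SD, n = 5) of its UMIs were articular. In resting, proliferating and hypertrophic chondrocytes Tesc stood at 0.6 to 0.8 CPM, below the 1.2 CPM of macrophages. A UMI of Creb5 was present after thinning in 66.6% to 75.3% of articular chondrocytes and 15.1% to 32.1% of macrophages. For Cytl1 these shares were 52.0% to 63.3% and 0.984% to 4.90%, and for Vit 30.4% to 34.6% and 0.866% to 2.54%. Cilp (17.5% to 30.7%), Cilp2 (14.4% to 27.7%) and Vwa1 (10.7% to 17.5%) were found in fewer articular cells, Tesc in 5.82% to 8.78% and Wfdc2 in 0.849% to 2.31%, and none of these ranges overlapped that of the same gene in macrophages. Against erythroid cells the articular ranges overlapped for Cilp2 (8.56% to 14.7%), Vwa1 (1.47% to 11.2%) and Wfdc2 (0% to 1.21%), so that these shares are not clear of the higher background. The ranges over the 5 pups of the articular level did not overlap those of any other chondrocyte class for Prg4, Cytl1, Cilp, Cilp2, Vit, Erg, Creb5, Tesc or Vwa1, but they did for Wfdc2.

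The articular class was not uniform. Cluster 8 (3240 cells) was led by Cilp, Cyfip2, Prg4, Vit, Cytl1 and Tesc and held the highest level of any cluster of at least 50 cells for Prg4 (27579 CPM), Cytl1 (1408), Vit (606), Erg (376), Tesc (73.4) and Vwa1 (113). Cluster 1 (4787 cells) held 13220 CPM of Prg4, close to the 12032 of cluster 16 (2489 cells), but its Cilp level was 44.4 CPM against 166 in cluster 16 and 1125 in cluster 8. Cluster 13 (2755 cells) held 15770 CPM of Prg4 and 1105 of Cytl1 with 8.0 CPM of Tesc. Wfdc2 did not share the peak in cluster 8, where the other 9 genes had their highest level among the 4 articular clusters. It was at 0.3 CPM there and at 25 CPM in cluster 13, which came next after cluster 8 for Prg4, Cytl1, Cilp, Vit, Erg and Creb5. The next highest level of Wfdc2, 20.6 CPM, was in cluster 6, a cluster of the proliferating class led by Matn4 and Notum. These clusters had been formed on other genes of the same cells, so the differences are descriptions.

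Some clusters outside the articular class shared single genes with it. Cilp reached 1151 CPM in cluster 33, a tendon cluster of 535 cells led by Chodl, where Prg4 was 408 and Vit 17.7, and 690 CPM in tendon cluster 23, where Prg4 was 2604. Creb5 was highest, at 1208 CPM, in cluster 28 (1053 cells), which stayed unnamed because its leading genes (Htra4, Tspan15, Clic5 and Col22a1) went against synovial, its best-scoring class. Tspan15 and Col22a1 were on the list of articular markers used for naming, and whether these cells are articular or synovial was not tested. In cluster 28 Prg4 stood at 5998 CPM, while Cytl1 (55.7), Cilp (51.7) and Vit (45.0) were far below their articular levels. Cilp2 was highest in tendon cluster 4, at 481 CPM, with 8.5 CPM of Cilp.

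**Figure D2:**
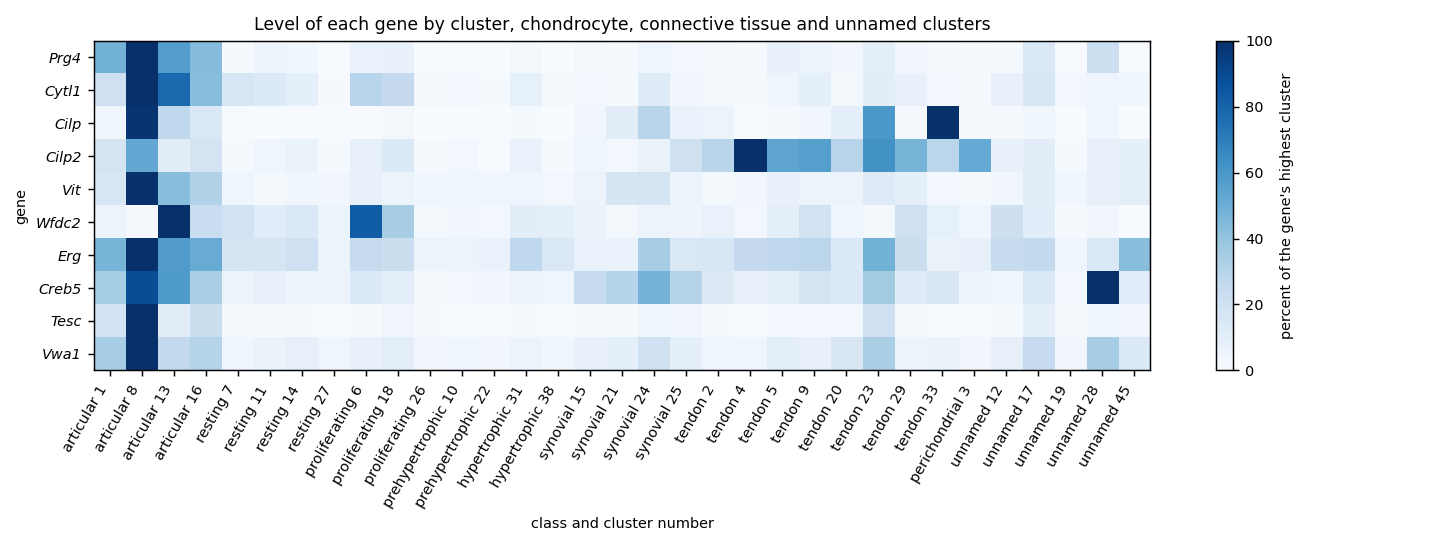
Level of each gene by cluster, as the percent of the gene's highest cluster, in chondrocyte, connective tissue and unnamed clusters. Articular cluster 8 is dark for 8 genes, Cilp2 is darkest in tendon cluster 4, Wfdc2 in clusters 13 and 6, and Creb5 in unnamed cluster 28.

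Over the 47 clusters of at least 50 cells, the levels of Prg4 (log2 of CPM + 5) were most like those of Cytl1 (Pearson r = 0.83), Hand2 (0.83), Stk32b (0.79), Wif1 (0.79) and Chst3 (0.79) among 10852 genes. The clusters share libraries and free RNA, so these values describe likeness only. Cytl1 was most like Stk32b (0.85) and D630045J12Rik (0.83). For Cilp the nearest genes were Itih5 and Rbms3, for Cilp2 Itgbl1 (0.91) and Col8a2 (0.89), and for Vit Dixdc1 and Gm15867. Wfdc2 had Matn4 and Msmp, Erg had Slc29a1 and Casr, Creb5 had Itih5 and Ank2, Tesc had Prg4 and Casr, and Vwa1 had Hoxd8 and Ttc9. Between the 10 genes themselves, r with Prg4 ran from 0.44 for Wfdc2 to 0.83 for Cytl1.

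The genes were also followed among single chondrocytes grouped by their Prg4 level, without regard to the boundaries between chondrocyte classes. Of these cells, 11962 had no Prg4 UMI, 10139 had up to 10 per 10000 UMIs, 7310 had 10 to 100 and 7592 had over 100. Prg4 defined the bins, and low values of all genes are affected by free RNA. From the bin without Prg4 to the highest bin, the level of Tesc was 74.6-fold to 134-fold higher over the 5 pups and that of Cilp 59.0-fold to 188-fold. These ratios rest on low base levels, 0.316 to 0.477 CPM of Tesc and 1.98 to 7.24 of Cilp without Prg4. Each of these genes rose from every bin to the next in 4 of the 5 pups. The ratio was 12.7 to 26.8 for Vit, 14.1 to 20.9 for Creb5 and 8.79 to 21.4 for Vwa1. Cytl1, Cilp2 and Erg had smaller ratios, 6.64 to 12.8, 6.70 to 9.29 and 5.52 to 8.65. Wfdc2 behaved differently, since its mean over the pups was 3.72 CPM without Prg4, 7.22 at 10 to 100 and 1.87 in the highest bin, so that in all 5 pups it ended below where it began (ratio 0.279 to 0.672). Aggrecan (Acan), the main cartilage proteoglycan, had a ratio of 0.299 to 0.392 and Col2a1 one of 0.708 to 1.13. Median depth was 7408 to 12934 UMIs per cell over the pups without Prg4 and 4269 to 6767 in the highest bin, and the part of depth in these ratios was not tested.

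**Figure D3:**
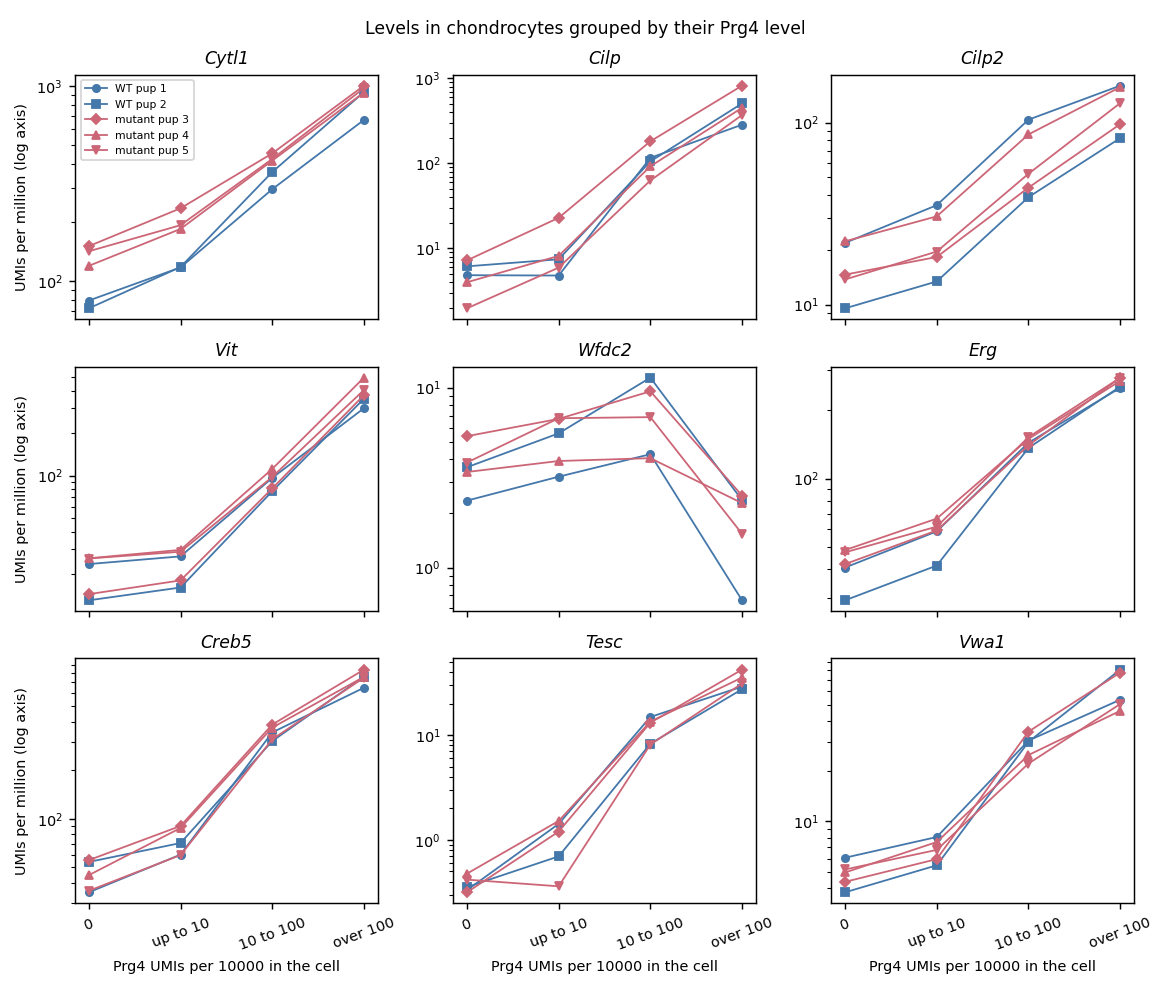
Level of 9 genes (CPM, log axes) in chondrocytes grouped by Prg4 UMIs per 10000, with a line per pup (blue WT, red mutant). Every gene ends above its first bin in all 5 pups except Wfdc2, which ends below it.

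The promoters of 7 of the 10 genes, in 11 windows of 250 bases before to 50 after a transcript start, were listed in RefSeq (GRCm38.p6), and those of Cytl1 and Creb5 are shown because Cytl1 is the gene followed between genotypes below and Creb5 is the factor whose family has a well-known DNA motif. Both strands were searched for the cAMP response element TGACGTCA, the AP-1 motif TGANTCA, the ETS motif CCGGAAGT, the TATA box TATAAA and the SOX motif AACAATG. Capitals mark a match.
Cytl1, chr5:37735269-37735568, plus strand: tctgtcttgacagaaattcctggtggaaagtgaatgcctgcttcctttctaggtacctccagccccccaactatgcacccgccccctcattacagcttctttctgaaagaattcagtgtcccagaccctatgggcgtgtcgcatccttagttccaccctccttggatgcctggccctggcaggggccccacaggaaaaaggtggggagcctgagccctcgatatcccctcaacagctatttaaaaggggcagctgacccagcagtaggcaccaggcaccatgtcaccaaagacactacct
Creb5, first start, chr6:53287053-53287352, plus strand: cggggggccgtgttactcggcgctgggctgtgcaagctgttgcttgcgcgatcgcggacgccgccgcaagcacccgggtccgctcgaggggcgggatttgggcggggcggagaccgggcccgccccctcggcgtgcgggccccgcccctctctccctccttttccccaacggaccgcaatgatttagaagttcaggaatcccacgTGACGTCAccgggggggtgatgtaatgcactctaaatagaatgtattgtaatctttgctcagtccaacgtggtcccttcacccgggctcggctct
Creb5, second start, chr6:53573124-53573423, plus strand: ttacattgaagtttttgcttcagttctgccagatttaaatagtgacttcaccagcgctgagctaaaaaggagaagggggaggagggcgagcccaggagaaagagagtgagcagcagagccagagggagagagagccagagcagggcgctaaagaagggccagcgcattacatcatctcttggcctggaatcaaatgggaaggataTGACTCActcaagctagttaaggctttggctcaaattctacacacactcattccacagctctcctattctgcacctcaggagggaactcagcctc
The first Creb5 window held the cAMP response element, which 1.79% of all 32851 windows held, and the second held the AP-1 motif, found in 7.81%. Both matches began 45 bases before the start. The Cytl1 window and those of Cilp, Cilp2, Wfdc2 and Tesc held none of the motifs. One Erg window held the SOX motif (3.78% of all windows) and another the TATA box (13.6%), both on the minus strand of the gene, and the ETS motif (3.89%) was in no window of these genes. A match of letters is no evidence of binding, and its absence concerns these 300 bases only. Prg4 itself lies on chromosome 1 (150449412 to 150466165, minus strand, GENCODE M21 on mm10), where it overlaps Tpr on the opposite strand, and Vwa1 on chromosome 4 (155768149 to 155774698, minus strand) overlaps Atad3aos and Gm26840 on the opposite strand. Vit overlaps Gm22562 on the opposite strand, and Creb5 overlaps Gm25818 and Gm44080 on its own strand. The strand setting of the counting is not given in the sources used here, so reads of the opposite-strand overlaps may not be told apart. Reads of the overlaps on the same strand cannot be told apart by strand.

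The study compared WT with mutant pups, and for each class the UMIs were summed per pup so that pups were the replicates. Levels below are CPM normalised by the trimmed mean of M values (TMM). In bulk sums of a class, fewer expressing cells and less RNA per cell cannot be told apart. Over all cells, the contrast that the choice of genes used, Cytl1 stood at 130 and 120 CPM in the WT pups and at 183, 176 and 215 in the mutant pups, a mean of 125 ± 6.79 (SD, n = 2) against 191 ± 20.5 (SD, n = 3). All mutant pups lay above both WT pups, as did 10.1% of the 21024 genes. The log2 fold change was 0.62 (SE 0.11). The other 9 genes overlapped between the groups over all cells. Prg4, for example, stood at 2472 and 2460 CPM in the WT pups and at 2775, 2039 and 2925 in the mutant pups.

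The Cytl1 difference was also computed with class shares held fixed, in CPM that were not TMM-normalised. With every class held at its mean share of UMIs, the ratio of mutant to WT was 1.40, against 1.43 as measured. With every cluster held at its mean share it was 1.30, and the pups overlapped in none of the 3 calculations. All 3 rest on the pups on which Cytl1 was chosen. The share of all genes without overlap was not counted at fixed shares. Vit was also without overlap with classes held fixed (51.2 and 48.5 CPM, not TMM-normalised, in the WT pups against 52.1, 58.3 and 65.9), but overlapped with clusters held fixed. Articular chondrocytes made up 15.8% ± 2.25 (SD, n = 2) of WT cells and 16.5% ± 1.5 (SD, n = 3) of mutant cells (exact permutation test, 2-sided p = 0.7, where 0.1 is the smallest p that 2 against 3 pups allow).

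In resting chondrocytes Cytl1 was 88.8 and 121 CPM in the WT pups and 268, 186 and 186 in the mutant pups, a log2 fold change of 1.02 (SE 0.20). All mutant pups were above both WT pups, as for 13.1% of the genes tested in that class. In proliferating chondrocytes it was 96.2 and 73.7 CPM against 147, 140 and 157, a log2 fold change of 0.80 (SE 0.14), again without overlap (9.07% of genes tested). Both WT values there, and that of WT pup 1 in resting chondrocytes, lay below the 103 CPM of erythroid cells with the pups pooled. The erythroid level of each pup is given below. It was above the proliferating value of the same pup in WT pup 2 and mutant pups 4 and 5, and above the resting value in mutant pup 5. In articular chondrocytes, where Cytl1 is highest, it was 579 and 734 CPM against 850, 731 and 826, so that WT pup 2 lay above mutant pup 4, and the log2 fold change was 0.29 (SE 0.13). It was 0.13 without WT pup 1 and 0.47 without WT pup 2. Tendon cells (45.7 and 45.9 CPM against 56.8, 50.2 and 84.8, where 11.2% of genes tested lay above both WT pups) and perichondrial cells (15.0 and 12.8 against 18.7, 18.9 and 34.1, 13.3% of genes) were also without overlap, although the tendon values overlapped in CPM without TMM factors. The perichondrial levels were below the pooled 23.5 CPM of macrophages in all pups except mutant pup 5. Against the macrophage level of the same pup, given below, those of mutant pups 3 and 5 were higher. Synovial and hypertrophic cells overlapped. Erythroid cells and macrophages, read above as background, and granulocytes were set beside these values. In erythroid cells (46 to 260 a pup) Cytl1 was 66.2 and 112 CPM, not TMM-normalised, in the WT pups and 116, 172 and 189 in the mutant pups, and in granulocytes (29 to 217 a pup) it was 28.7 and 32.1 against 91.9, 134 and 130. In neither class did the groups overlap. Every mutant pup lay above both WT pups for 4.24% of the genes tested in erythroid cells and 6.23% in granulocytes, and below them for 8.18% and 13.4%. In macrophages it was 21.2 and 27.8 CPM against 16.4, 47.3 and 3.84, which overlapped, where 9.68% of genes lay above and 11.9% below. Cytl1 thus moved with the genotype label in 2 of these 3 classes. The granulocyte class pooled clusters at 94.7 and 17.7 CPM of Cytl1, and the erythroid class clusters at 130 and 59.6. The parts of free RNA and of the mix of clusters in these values were not tested. Nor was the part of background in the differences of the other classes. No p is given for Cytl1 in these classes, because the cells belong to the pups on which it was chosen. In resting chondrocytes the value depended on the clusters: it was 0.42 at a Leiden resolution of 0.8 and 0.65 with another random seed. In libraries with Ddx3y only (both WT pups and mutant pup 5) the log2 fold change of Cytl1 was 0.78 over all cells, 0.33 in articular, 0.83 in resting and 0.89 in proliferating chondrocytes.

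**Figure D4:**
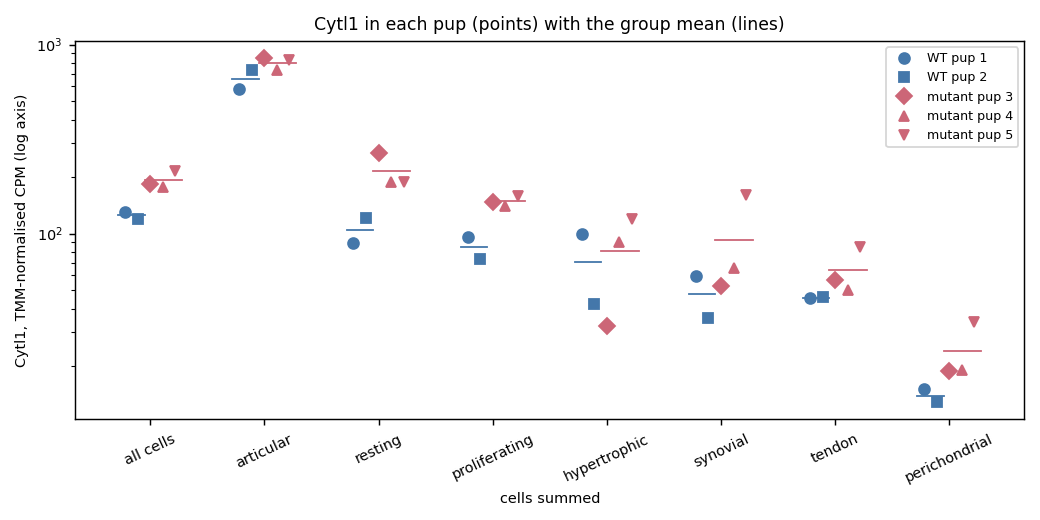
Cytl1 in each pup (points, TMM-normalised CPM, log axis) over all cells and in 7 cell classes, with lines at the group means (blue WT, red mutant). Mutant points lie above both WT points over all cells and in resting, proliferating, tendon (not without TMM factors) and perichondrial cells, and the groups overlap in articular, hypertrophic and synovial cells.

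A model with a term for each pup gave the difference of the genotype effect between classes. For Cytl1 these differences come from the same pups as its choice and are given without a p, so that a difference between classes is not shown. All these differences were computed on the main clusters only, and the resting value depended on the clusters, as given above. The effect in resting minus that in articular chondrocytes was 0.73 (SE 0.12) on the log2 scale, and 0.57 to 0.83 with each pup left out. For proliferating minus articular chondrocytes it was 0.53 (SE 0.22), with 0.17 without WT pup 2 and 0.87 without WT pup 1, and for tendon minus articular 0.13 (SE 0.22), which turned to -0.04 without WT pup 2 or mutant pup 5. In articular cluster 8 the level of Cytl1 was 1130 and 1443 CPM (not TMM-normalised) in the WT pups and 1463, 1633 and 1444 in the mutant pups, where the nearest pups of the groups were about equal, and the pups overlapped in the other 3 articular clusters, 1, 13 and 16. In resting cluster 7 it was 128 and 154 against 385, 297 and 244. The pups overlapped in the other 3 resting clusters, 11, 14 and 27. In proliferating cluster 6 it was 332 and 347 CPM against 489, 411 and 464, and in cluster 18 it was 266 and 269 against 585, 372 and 343. The pups overlapped in the other 3 clusters of that class, proliferating cluster 26 and prehypertrophic clusters 10 and 22, where the highest pup was at 41.5 CPM. In each of these 5 clusters the ratio of the mutant to the WT mean was below the 1.68 of the class (not TMM-normalised), and the part of the mix of clusters in the class value was not tested. Clusters are parts of the sums on which Cytl1 was chosen and come from the same pups, so a count over clusters is a description and no support. Over all 37 clusters with at least 20 cells in each pup, Cytl1 was higher in every mutant pup than in both WT pups in 10 and lower in 0, where 7.27% of all gene and cluster pairs were higher and 14.3% lower. Apart from clusters 6, 7, 8 and 18 these were perichondrial cluster 3, tendon cluster 5, unnamed cluster 12, synovial cluster 25, hypertrophic cluster 38 and erythroid cluster 37 (94.6 and 114 CPM against 125, 179 and 247), so that chondrocyte clusters made up 5 of the 10.

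None of the other 9 genes passed the adjusted threshold in any class where it was tested, in edgeR or in DESeq2. In hypertrophic and perichondrial cells 7 of the 9 were tested, since Wfdc2 and Tesc were too sparse there. In articular chondrocytes edgeR called 0 of 13864 genes (percent called 0), with 786 (5.67%) at an unadjusted p under 0.05, and DESeq2 called 5, while 1 of the 9 genes, Vit, was under the unadjusted limit. The edgeR count was 0 in the other classes too, with 1322 genes (9.16%) under the unadjusted limit in resting, 678 (4.08%) in proliferating, 353 (3.31%) in hypertrophic, 334 (2.6%) in synovial, 684 (4.48%) in tendon and 1033 (8.47%) in perichondrial cells, and 1169 (5.56%) over all cells. DESeq2 called 90, 8, 3, 3, 5 and 20 genes in these classes and 48 over all cells. Under the unadjusted limit were Erg in resting and proliferating chondrocytes, Prg4 in hypertrophic chondrocytes and Tesc in synovial cells. None of the 9 genes in tendon cells and none of the 7 tested in perichondrial cells was under it.

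In articular chondrocytes the difference of Prg4 between the genotypes was within the spread of the pups. It was 14850 and 18230 CPM in the WT pups and 18910, 13730 and 17200 in the mutant pups, and the log2 fold change was 0.01 (SE 0.15, adjusted p = 0.996). The thinned share of articular cells with a Prg4 UMI was 93.1% in WT and 92.1% in mutant pups (exact permutation test, p = 0.7, adjusted p = 1 over 18 tests). In proliferating chondrocytes Prg4 was lower in every mutant pup (543, 538 and 584 CPM) than in both WT pups (620 and 645), as were 11.3% of genes, and its log2 fold change of -0.19 (SE 0.09) had an adjusted p of 0.997. This direction depended on the clusters, since the log2 fold change was 0.34 with another random seed. Prg4 was also lower in every mutant pup in hypertrophic chondrocytes, where it was 423 and 350 CPM against 316, 287 and 208 (9.56% of genes), with a log2 fold change of -0.51 (SE 0.18, adjusted p = 0.999), at levels below or near the macrophage level of 325.

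Of the 9 genes, Vit had the lowest unadjusted p in articular chondrocytes. It was 214 and 239 CPM in the WT pups and 264, 301 and 278 in the mutant pups, with a log2 fold change of 0.31 (SE 0.11, unadjusted p = 0.0198, adjusted p = 0.839, and 0.496 to 1.00 over 14 alternatives). The thinned share of articular cells with a Vit UMI was 31.7% in WT and 34.2% in mutant pups (exact permutation test, p = 0.1, adjusted p = 1). Without thinning the shares were 41.4% and 41.0%, in the opposite direction. Erg (230 and 213 CPM against 236, 236 and 244) and Creb5 (564 and 595 against 692, 625 and 604) also did not overlap there, which makes 3 of the 9 genes, where 10.7% of all genes tested had every mutant pup above both WT pups. This count depended on the scaling: in CPM without TMM factors Vit alone of the 9 was without overlap, and Erg (221 and 230 against 250, 221 and 236) and Creb5 (544 and 642 against 732, 585 and 583) overlapped. Their log2 fold changes were 0.11 (SE 0.10, adjusted p = 0.871) and 0.14 (SE 0.11, adjusted p = 0.857), and ran from 0.06 to 0.17 and from 0.08 to 0.19 with each pup left out. Erg was also without overlap in resting chondrocytes (62.3 and 41.9 CPM against 63.3, 75.3 and 79.9), with a log2 fold change of 0.48 (SE 0.18, adjusted p = 0.48) that was 0.80 without WT pup 1, 0.23 without WT pup 2 and 0.16 at a Leiden resolution of 0.8, and in proliferating chondrocytes (39.7 and 28.6 against 40.0, 45.5 and 44.6), with one of 0.35 (SE 0.15, adjusted p = 0.997). Erythroid cells held 64.4 CPM of Erg with the pups pooled, above every proliferating value and within the range of the resting ones, and macrophages 16.2. In erythroid cells Erg was 44.5 and 69.7 CPM, not TMM-normalised, in the WT pups and 83.0, 99.2 and 78.5 in the mutant pups, also without overlap (4.24% of genes), and its part in the resting and proliferating differences was not tested. The Erg effect in resting minus that in articular chondrocytes was 0.40 (SE 0.15, adjusted p = 0.633 over 14885 genes in edgeR).

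The remaining genes overlapped between the genotypes in articular chondrocytes. In articular chondrocytes Cilp was 239 and 362 CPM in the WT pups and 605, 284 and 248 in the mutant pups, and only mutant pup 3 lay outside the WT range. Cilp2 was 161 and 68.8 CPM against 86.9, 151 and 109. WT pup 1 and mutant pup 4 were the highest libraries for Cilp2 in 7 of the 8 sums examined (all cells and 7 classes), and WT pup 2 was the lowest in 6. Tesc (26.6 and 20.9 CPM against 33.2, 27.7 and 22.2) and Vwa1 (49.7 and 62.3 against 64.0, 42.4 and 41.6) overlapped. Wfdc2 was 3.13 and 8.55 CPM in the WT pups and 6.22, 4.16 and 8.95 in the mutant pups, which overlapped. Outside cartilage, Creb5 in synovial cells was 347 and 354 CPM in the WT pups and 367, 418 and 422 in the mutant pups without overlap (8.82% of genes tested there), with a log2 fold change of 0.20 (SE 0.12, adjusted p = 1.00). In tendon cells Wfdc2 (11.2% of genes) lay above and Vwa1 (12.1%) below both WT pups in every mutant pup, with log2 fold changes of 0.36 (SE 0.21) and -0.38 (SE 0.24) and an adjusted p of 0.888 each, and Wfdc2 overlapped without TMM factors. In synovial cells Tesc was lower in every mutant pup (1.15, 1.26 and 0.643 CPM) than in the WT pups (2.98 and 1.75), as were 9.4% of genes, at levels near the macrophage background and with an adjusted p of 1.00. The log2 fold change of -1.05 (SE 0.44) was -0.67 without WT pup 1 and turned to 0.28 with another random seed.

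**Figure D5:**
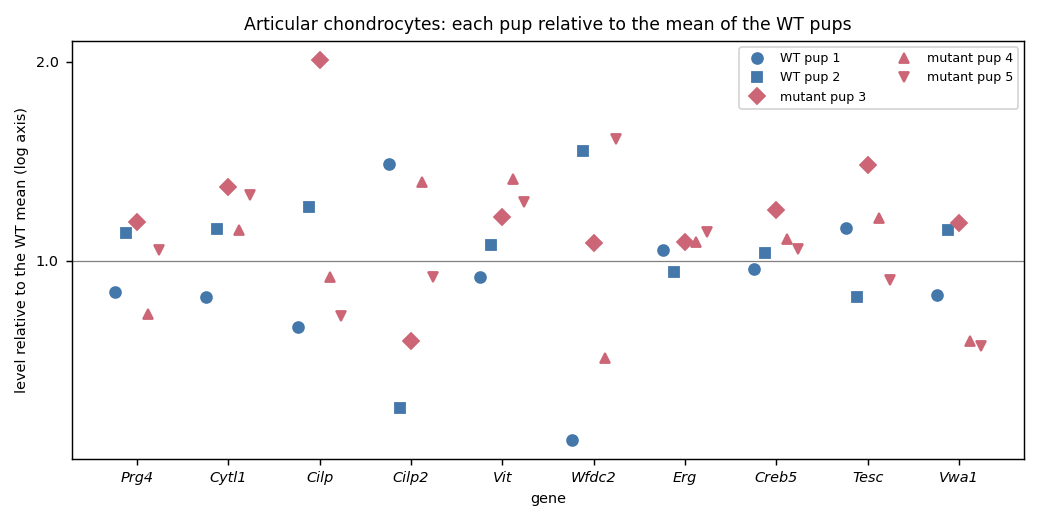
Articular chondrocytes: level of each gene in each pup relative to the mean of the WT pups (log axis, grey line at 1). Mutant points (red) lie above both WT points (blue) for Vit, Erg and Creb5 and overlap for the other genes (TMM-normalised CPM; without TMM factors Erg and Creb5 overlap too), with the widest spread for Cilp, Cilp2 and Wfdc2.

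Lists of related genes were examined in the same articular sums. Of 18 joint interzone and superficial zone genes 17 were tested, of 12 genes of hyaluronan and boundary lubrication 11, and of 13 genes that provide TGF-β and CREB inputs 13, and edgeR called none in either direction. In the interzone list 9 genes were above 0 and 8 below, in the hyaluronan list 9 and 2, and in the TGF-β and CREB list 8 and 5. Their median log2 fold changes were 0.02, 0.14 and 0.14, beside -0.0022 over all genes and 0.14 over the 9 genes without Cytl1. The largest changes at 20 CPM or more were those of Cd44, a hyaluronan receptor (0.48, SE 0.17), Cemip2, a hyaluronidase of the cell surface (0.34, SE 0.13), Tgfb2 (0.54, SE 0.34) and its receptor Tgfbr2 (0.32, SE 0.12), Foxo3 (0.20, SE 0.13) and Clu (-0.18, SE 0.16), with adjusted p-values from 0.839 to 0.871. Cd44 was 61.6 and 89.8 CPM (not TMM-normalised) in the WT pups and 105, 114 and 83.4 in the mutant pups, which overlapped.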

How the data were processed

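The authors prepared single cells from femoral and tibial epiphyses and deposited UMI counts for each pup as a sparse table of genes by cell barcodes, without normalization. The labels name mm10 as the genome build. The pipeline of the platform, by the paper's methods, assigned barcodes and quantified transcripts. Its aligner, annotation and strand setting are not given in the sources used here. The counts were used as deposited.

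The study's cell filters were kept (200 to 6000 genes and no more than 10% of UMIs from mitochondrial genes). Analytic Pearson residuals (theta 100) over 3000 variable genes, without the 10 genes, mitochondrial genes, Xist and Y chromosome genes, gave 50 components, 20 neighbours and Leiden clusters (resolution 1.5, seed 1; scanpy 1.11.5, leidenalg 0.10.2). Clusters were named from marker lists by the mean standardized log2(CPM + 5), trying classes within 0.6 of the best score and asking for at least 3 markers in at least 10% of cells. The name was withheld where leading genes went against it. These naming limits were set after the clusters were seen. Doublets were called by Scrublet, which marked 2.28% to 3.04% of cells in pups 1 to 4 and 0 in mutant pup 5. They were kept, and both the called cells and the 5% of cells with the highest score were left out as alternatives, the second chosen after seeing the data.

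Sums per pup and class were tested with edgeR 4.0.16 (TMM scaling, genes kept by filterByExpr, quasi-likelihood with robust dispersions, p-values adjusted by Benjamini-Hochberg over the genes tested, threshold 0.05) and, as an alternative, DESeq2 1.42.0. Differences of effects between classes used the pup as a block. The one for proliferating chondrocytes was added after seeing the data. Shares of cells were compared after thinning in closed form to 3000 UMIs by 2-sided exact permutation over 10 groupings. Pups are littermates, and p-values measure the spread between them. The tests were tested on simulated data.

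The 10 genes and the lists were chosen with earlier results of these data known. Named were the 10 genes, the 5 genes most like Prg4 and 2 most like each other gene by Pearson correlation over clusters, genes of the related lists past the threshold, and the 2 per list with the largest change in articular chondrocytes at 20 CPM or more. Clusters and other genes were named after their values were seen. Promoter sequences are from RefSeq (GRCm38.p6), gene positions from GENCODE M21. Further tools were R 4.3.3, Python 3.11.15, numpy 2.4.6, scipy 1.17.1, pandas 2.3.3, scikit-learn 1.9.0, igraph 0.11.9 and matplotlib 3.10.9. Genes whose pups did not overlap were also counted by cluster and in blood cells, over genes with at least 10 UMIs in at least 2 pups.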

Additional observations from a re-analysis of the deposited data

How the results depend on the processing

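No paired analysis was possible because the groups share no replicate numbers: pups 1 and 2 were WT and pups 3 to 5 mutant. None of the 9 genes other than Cytl1 was called under any alternative run, and the cause of the shifts below was not tested. The number of all genes called, 0 in each contrast, was 48 over all cells with DESeq2, and 5, 90, 8, 3, 3, 5 and 20 in articular, resting, proliferating, hypertrophic, synovial, tendon and perichondrial cells. Without filterByExpr it was 41 in articular, 156 in resting, 2 in proliferating, 36 in hypertrophic, 20 in synovial and 102 in perichondrial cells. In libraries with Ddx3y only it was 35 in resting and 35 in perichondrial cells, with another seed 1 in resting and 1 in synovial cells, and with the 10 genes kept among the features 1 in proliferating cells. With each pup left out it ran from 0 to 6 over all cells, 0 to 6 in articular, 0 to 19 in resting, 0 to 5 in proliferating, 0 to 5 in hypertrophic, 0 to 6 in synovial, 0 to 5 in tendon and 0 to 8 in perichondrial cells. For resting minus articular it ran from 0 to 55, the 55 being without mutant pup 3, and for proliferating minus articular from 0 to 1. Without TMM scaling the median of all genes moved from -0.02 to -0.12 over all cells and Cytl1 from 0.62 to 0.52.

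With another seed the log2 fold change of Prg4 in proliferating chondrocytes was 0.34 and that of Tesc in synovial cells 0.28, both of opposite sign. The Cytl1 difference for tendon minus articular ranged from -0.0435 (without mutant pup 5) to 0.32 with each pup left out, and was -0.0359 without WT pup 2. For the articular share of cells, the difference of 0.64 percentage points became -0.721 with another seed and ran from -0.953 to 2.23 with each pup left out. The difference in the thinned share with Prg4 ran from -2.11 to 0.143, and that with Vit, 2.43, became -0.396 without thinning. The ratio of the articular to the all-cell level moved with the clusters. With another seed it was 7.32 for Prg4, 5.79 for Cytl1, 7.21 for Cilp, 1.39 for Cilp2, 6.41 for Vit, 4.80 for Creb5, 7.84 for Tesc and 4.71 for Vwa1. With the 10 genes kept among the features it was 8.29 for Prg4, 5.83 for Cilp, 1.36 for Cilp2, 5.74 for Vit, 3.84 for Creb5 and 7.19 for Tesc. At resolution 0.8 it was 1.15 for Cilp2, 3.02 for Wfdc2 and 3.21 for Creb5. For Wfdc2, at 2.005 in the main run, it fell to 1.56 with another seed and to 1.40 with the 10 genes kept among the features.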
